A study of Homo sapiens with 12 samples.

Results

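Condensins and type II topoisomerases are the enzymes that fold and untangle chromosomes for mitosis. Condensin I and condensin II are ring complexes that extrude DNA loops. Both hold the ATPases SMC2 and SMC4. Condensin I adds the kleisin NCAPH, which closes the ring, and the HEAT-repeat subunits NCAPD2 and NCAPG, and condensin II adds their counterparts NCAPH2, NCAPD3 and NCAPG2. Condensin II resides in the nucleus throughout interphase, whereas condensin I reaches chromatin after nuclear envelope breakdown. Topoisomerase II passes one DNA duplex through another. TOP2A is the form of proliferating cells, and TOP2B is the form that is also made in resting and differentiated cells. The transcripts of these 10 genes, chosen by name as the complete set of condensin subunits and both topoisomerases II, were described among the 58233 genes counted. All 10 members were among the 16657 genes that passed the filter on low counts.

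The RNA came from HCT116, a human colorectal carcinoma line, in 4 groups of 3 biological replicates. Parental cells were HCT116 Tet-OsTIR1, which carry the plant protein TIR1 at both AAVS1 alleles under a tetracycline-inducible promoter. SDS22-degron cells were made from them by CRISPR/Cas9 tagging of PPP1R7, the gene of the phosphatase-1 regulator SDS22, with an auxin-inducible degron and the fluorescent protein mClover (SDS22-mAID-mClover). The degron cells were grown from isolated colonies, and how many colonies they represent is not given in the sources used here. Both lines were either untreated or exposed for 48 h to 2 µg/ml doxycycline (Dox), which switches on TIR1, and 500 µM of the auxin IAA, with which TIR1 marks the tagged protein for degradation. Treated parental cells therefore share both agents and TIR1 with treated degron cells, but lack the tag. The agents act on the SDS22 protein, and the PPP1R7 transcript lay between 40.1 and 51.1 CPM (counts of a gene scaled to a common library size) over all 12 libraries, with an adjusted p of 0.265 between treated and untreated degron cells.

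The deposited values were raw read counts per gene, between 12133915 and 14657508 per library, and the members had between 389 (NCAPH, treated degron cells) and 6152 counts (NCAPD2, untreated degron cells) in a library. CPM values were normalized for library composition by TMM, and the F test of edgeR's quasi-likelihood fit was used for differences, with p-values adjusted over all tested genes and a gene called at an adjusted p under 0.05. Of 8 markers of colorectal epithelium, 6 reached 1 CPM, with VIL1 near 0 and CDX1 at 0. Of 8 markers of blood, fibroblasts and endothelium, only COL1A1 reached 1 CPM, while CD3E, COL1A2 and CDH5 had no count. The sum of these 8 lay between 9.96 and 13.6 CPM in untreated and between 17.2 and 23 CPM in treated parental cells. In degron cells it lay between 13.8 and 15.8 CPM without and between 21.4 and 31.8 CPM with treatment, and its part in the results was not tested. Within groups, 1 library was often the highest for most members. This was library 2 for 9 of 10 members in untreated and for 9 of 10 in treated parental cells, and library 1 for 9 of 10 in treated degron cells, while in untreated degron cells no library was the highest for more than 5. In RNA from whole cultures, fewer cells of a type and less RNA per cell cannot be told apart.

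In SDS22-degron cells treated with Dox/IAA, 9 of the 10 members were lower than in untreated degron cells, and TOP2B was the exception. NCAPG fell to 33.6%, NCAPH to 38.5% and TOP2A to 41.2% of the untreated level. Of all tested genes, 25.5% were called lower in this comparison. The median log2 fold change of the members was -1.09, against 0.00 over all tested genes. The study names a cut-off, a change of more than 1 on the log2 scale with p under 0.05 before adjustment. The study used it between the treated lines, with p-values of edgeR's likelihood ratio test. With the p-values of the F test used here, 7 members passed within degron cells, while 4.02% of tested genes passed in the lower direction. The libraries of 9 members did not overlap, which held for 29.7% of all tested genes in the lower direction. In parental cells treated with the same agents, 1 member was called lower, NCAPD2, against 15.7% of tested genes.

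**Figure D1:**
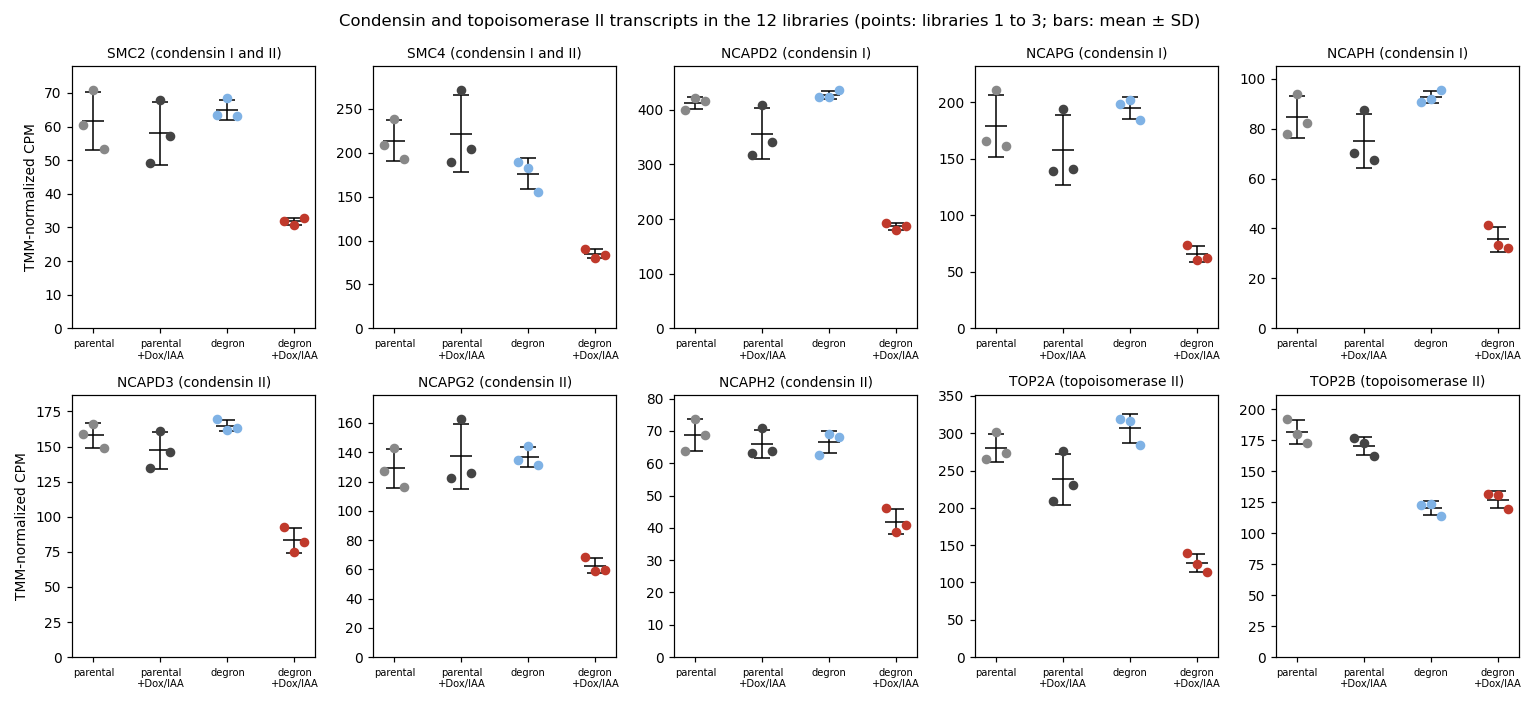
TMM-normalized CPM (linear axes from 0) of the 10 members in each library of the 4 groups, with points for libraries 1 to 3 and bars for the mean and SD (n = 3). Treated degron cells lie lowest for 9 members, whereas for TOP2B both degron groups lie between 114.0 and 131.3 CPM, below both parental groups.

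The 2 shared ATPases each fell to about the same fraction in degron cells. SMC2 was at 63.5, 68.4 and 63.0 CPM in untreated and 31.8, 30.8 and 32.9 CPM in treated degron cells. It was at 60.6, 70.8 and 53.5 CPM in untreated and 49.1, 67.8 and 57.1 CPM in treated parental cells. The treated degron libraries were thus below the other 9, which overlapped with each other. The log2 fold change of SMC2 within degron cells was -1.03 (SE 0.109, adjusted p = 3.98e-07, edgeR), which is 49.0% of the untreated level.

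SMC4, its partner ATPase (chr3:160399274-160434962, plus strand), was at 189.0, 183.1 and 155.8 CPM in untreated and 90.7, 80.5 and 83.5 CPM in treated degron cells. In parental cells it was at 208.4, 239.2 and 193.1 CPM without and 189.4, 271.5 and 204.2 CPM with treatment. All treated degron libraries were below all others, and the untreated degron libraries were below the untreated parental ones. Its log2 fold change within degron cells was -1.05 (SE 0.115, adjusted p = 5.84e-07, edgeR). Between the untreated lines it was -0.28 (95% confidence interval -0.51 to -0.05), with an adjusted p of 0.0696.

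The 3 subunits of condensin I fell by between 1.19 and 1.57 on the log2 scale in degron cells. NCAPG had the lowest log2 fold change of all members. It was at 198.5, 202.1 and 184.5 CPM in untreated and 73.4, 60.5 and 62.6 CPM in treated degron cells, against 166.1, 210.9 and 161.1 CPM in untreated and 139.0, 193.9 and 141.4 CPM in treated parental cells. The treated degron libraries were below the lowest parental library, whereas the parental groups overlapped. The log2 fold change of NCAPG was -1.57 within degron cells (SE 0.122, adjusted p = 1.13e-08, edgeR) and -0.18 within parental cells (SE 0.117, adjusted p = 0.251).

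The kleisin NCAPH was at 90.5, 92.0 and 95.4 CPM in untreated and 41.3, 33.5 and 32.0 CPM in treated degron cells. Parental cells had 77.7, 93.9 and 82.2 CPM without and 70.3, 87.6 and 67.6 CPM with treatment. Again only the treated degron libraries were apart from the rest, and the log2 fold change within degron cells was -1.38 (SE 0.106, adjusted p = 1.07e-08, edgeR).

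NCAPD2, the HEAT-repeat subunit with the highest counts, was at 423.3, 423.1 and 436.0 CPM in untreated and 193.4, 180.7 and 186.5 CPM in treated degron cells, a log2 fold change of -1.19 (SE 0.0773, adjusted p = 2.05e-09, edgeR). In parental cells it was at 399.9, 421.5 and 416.3 CPM without and 317.8, 408.2 and 341.9 CPM with treatment. Treated parental library 2 thus lay within the untreated range, and the other two lay below it. This was the member called in parental cells, at -0.21 on the log2 scale (95% confidence interval -0.37 to -0.05, adjusted p = 0.0393, edgeR).

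The NCAPD2 call in parental cells depended on the libraries and the scaling. It was lost without untreated parental library 2 (adjusted p = 0.103) or 3 (adjusted p = 0.0853) and without treated parental library 1 (adjusted p = 0.218) or 3 (adjusted p = 0.137). Without treated parental library 2, 4 members were called, NCAPD2, NCAPG, NCAPH and TOP2A. With the replicate number as a block, TOP2A was called beside NCAPD2 (2 members), with a log2 fold change of -0.24 and an adjusted p of 0.0247. With scaling by library size alone, no member was called (NCAPD2 adjusted p = 0.154), and the called genes in this comparison changed from 2608 lower and 2656 higher to 1958 lower and 3503 higher.

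The subunits of condensin II fell by between 0.67 and 1.13 on the log2 scale in degron cells. NCAPG2, the HEAT-repeat subunit corresponding to NCAPG, was at 134.5, 144.4 and 131.6 CPM in untreated and 68.5, 59.2 and 59.6 CPM in treated degron cells. In parental cells it was at 127.4, 143.0 and 116.3 CPM without and 122.5, 162.7 and 126.1 CPM with treatment. The log2 fold change was -1.13 within degron cells (SE 0.102, adjusted p = 6.00e-08, edgeR), with only the treated degron libraries apart.

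NCAPD3, the counterpart of NCAPD2, was at 169.6, 161.8 and 163.2 CPM in untreated and 92.6, 74.9 and 82.3 CPM in treated degron cells, and between 134.7 and 166.2 CPM in the 6 parental libraries. Its log2 fold change was -0.99 (SE 0.0811, adjusted p = 2.13e-08, edgeR). The kleisin NCAPH2 was at 62.6, 69.1 and 68.1 CPM in untreated and 46.1, 38.7 and 41.0 CPM in treated degron cells, and between 63.1 and 73.6 CPM in the parental libraries. Its libraries did not overlap between the degron groups either, but its log2 fold change of -0.67 (SE 0.0819, adjusted p = 2.23e-06, edgeR) was the smallest of the 8 condensin subunits.

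The order of the complexes differed between comparisons. Within degron cells each condensin I subunit had a lower log2 fold change than each condensin II subunit, but NCAPG2 was lower than NCAPH and NCAPD2 both in the difference of the response between the lines (-1.22 against -1.21 and -0.98) and between the treated lines (-1.13 against -1.08 and -0.93). These differences between genes were not tested. Ratios within a library also differed by treatment. Expressed as CPM per kb of gene length, which allows levels of different genes to be set side by side, the summed condensin I subunits were between 2.23 and 2.31 times the summed condensin II subunits in untreated degron cells and between 1.66 and 1.74 times in treated degron cells. In parental cells the ratio was between 2.13 and 2.23 without and between 1.88 and 2.04 with treatment, so that it was lower in all treated libraries of both lines. The kleisin ratio of NCAPH to NCAPH2 fell below 1 only in treated degron cells (0.753 to 0.863), whereas it was between 1.28 and 1.40 in untreated degron cells and between 1.02 and 1.23 in the parental libraries. The ratio of NCAPG to NCAPG2 was between 1.99 and 2.10 in untreated and between 1.45 and 1.52 in treated degron cells, and it was also lower in treated (1.59 to 1.69) than in untreated parental cells (1.85 to 2.09). These ratios are descriptions, and no test was made of them. The ratio of SMC4 to SMC2 separated the lines and not the treatments, with values between 2.58 and 3.06 in parental and between 1.89 and 2.28 in degron libraries.

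The topoisomerases differed in their response. TOP2A is at chr17:40388516-40417950 on the minus strand with 35 annotated exons, and TOP2B at chr3:25597905-25664907 on the minus strand with 38 (GRCh38). TOP2A was at 319.0, 316.9 and 283.9 CPM in untreated and 139.3, 125.4 and 114.6 CPM in treated degron cells. In parental cells it was at 265.4, 301.1 and 273.9 CPM without and 208.6, 275.8 and 230.5 CPM with treatment. All treated degron libraries were below the lowest parental library. The log2 fold change of TOP2A was -1.28 within degron cells (95% confidence interval -1.48 to -1.08, adjusted p = 7.48e-09, edgeR) and -0.23 within parental cells (95% confidence interval -0.43 to -0.04, adjusted p = 0.0623). With the replicate block, TOP2A was called in parental cells (-0.24, adjusted p = 0.0247).

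TOP2B was at 122.8, 123.9 and 114.0 CPM in untreated and 131.3, 130.5 and 119.2 CPM in treated degron cells, and these groups overlapped. Parental cells had 192.1, 180.4 and 173.2 CPM without and 176.9, 172.5 and 162.5 CPM with treatment. Every parental library was thus above every degron library, treated or not. The log2 fold change of TOP2B was 0.08 within degron cells (95% confidence interval -0.06 to 0.22, adjusted p = 0.341, edgeR), and a fall of the size seen in TOP2A lay outside this interval. Within parental cells it was -0.09 (95% confidence interval -0.23 to 0.05, adjusted p = 0.305). Per kb, TOP2A was between 2.34 and 2.44 times TOP2B in untreated and between 0.902 and 0.996 times TOP2B in treated degron cells, against 1.11 to 1.57 times over the parental libraries. TOP2B was thus above TOP2A in the 3 treated degron libraries and in no other.

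The proximal promoters of both topoisomerases, and of NCAPH for comparison, are shown with 2 kinds of motif, since their transcripts moved apart while promoters of cell-cycle genes often carry both motifs. The cell-cycle genes homology region (CHR, searched as TTTGAA or TTCGAA) is known as a site of the DREAM and MuvB complexes, and the CCAAT box as a site of NF-Y. In the upstream stretches below, taken from RefSeq (GRCh38.p14) and limited to bases outside the gene as deposited, capitals mark matches on either strand (TTTGAA or TTCAAA for CHR, CCAAT or ATTGG for NF-Y).
TOP2A, chr17:40417951-40418146, minus strand: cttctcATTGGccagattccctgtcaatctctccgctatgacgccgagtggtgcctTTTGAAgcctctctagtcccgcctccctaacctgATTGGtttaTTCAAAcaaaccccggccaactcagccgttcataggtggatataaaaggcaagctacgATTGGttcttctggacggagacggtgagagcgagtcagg
TOP2B, chr3:25664908-25665157, minus strand: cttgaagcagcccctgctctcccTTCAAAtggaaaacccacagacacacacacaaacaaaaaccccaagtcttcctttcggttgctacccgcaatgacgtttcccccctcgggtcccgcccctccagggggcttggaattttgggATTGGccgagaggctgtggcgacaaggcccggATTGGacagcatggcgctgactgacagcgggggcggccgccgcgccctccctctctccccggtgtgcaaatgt
NCAPH, chr2:96335516-96335765, plus strand: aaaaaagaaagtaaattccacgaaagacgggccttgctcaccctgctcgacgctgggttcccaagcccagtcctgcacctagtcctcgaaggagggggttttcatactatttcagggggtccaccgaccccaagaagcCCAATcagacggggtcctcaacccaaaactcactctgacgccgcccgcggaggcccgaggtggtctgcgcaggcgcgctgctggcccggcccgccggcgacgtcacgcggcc

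TOP2A held CHR matches that begin at positions -194 and -151 from the RefSeq start, and TOP2B held 1 at position -227, in 1 of its 2 promoter entries. NF-Y boxes were found 4 times in the TOP2A window (1 of them past the stretch shown) and 2 times in this TOP2B window. The other TOP2B entry held 0 matches of either motif. The part of these motifs in the response to Dox/IAA was not tested. NCAPH held an NF-Y box and no CHR match. By gene, 8 of the 9 members with a promoter window held a CHR match in at least 1 window, and NCAPH was the exception. Of all 27305 genes with a window, 19.5% held one. Over the members, RefSeq gave 13 promoter windows (250 bases before to 50 after a start) for 9 genes, and NCAPH2 had none. A CHR match was found in 8 of these 13 windows (16.4% of all 35116 windows), a CCAAT box in 5 (34.6%) and an E2F site (TTTCCCGC, TTTCGCGC, TTTGGCGC or TTTGCCGC) in 1, that of NCAPD3 (3.31%). The number of overlaps between matches in the members' windows was 0. A match is a string of letters in this window, and binding was not measured.

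The response to Dox/IAA was compared between the lines by an interaction term, the log2 fold change in degron cells minus that in parental cells. It was below 0 and called for 9 members, while 8.35% of tested genes were called lower. By the cut-off the study names, 5 members passed, against 2.46% of tested genes. The median over the members was -1.01, against 0.00 over all tested genes. The values ran from -1.39 for NCAPG (SE 0.168, adjusted p = 4.47e-05) to -0.61 for NCAPH2 (SE 0.114, adjusted p = 0.00161). TOP2A was at -1.04 (95% confidence interval -1.32 to -0.77), whereas TOP2B was at 0.17 (95% confidence interval -0.03 to 0.37, adjusted p = 0.240).

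Between the treated lines, which share the treated degron libraries with the comparison above, all 10 members were lower in degron cells, and 23.1% of tested genes were called lower. All 10 had libraries that did not overlap, which held for 27.2% of tested genes. By the cut-off, 4 members passed, SMC4, NCAPG, NCAPH and NCAPG2, against 3.38% of tested genes. The median log2 fold change was -0.92, against -0.01 over all tested genes. SMC4 had the lowest value (-1.38, SE 0.115, adjusted p = 3.89e-08), and TOP2B the highest (-0.43, SE 0.0660, adjusted p = 4.12e-05). Between the untreated lines SMC4 was at -0.28 and TOP2B at -0.60. The other tested genes of chromosome 3, which holds both, had a median of -0.26 between the treated lines. The part of these line differences in the values of SMC4 and TOP2B was not tested.

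**Figure D2:**
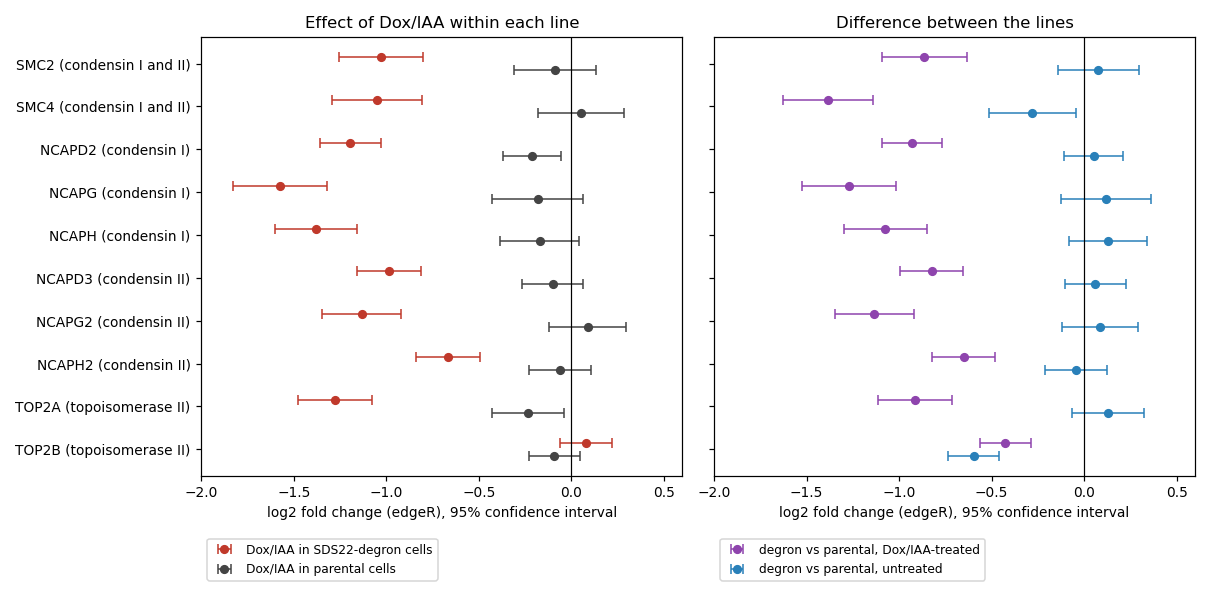
Log2 fold changes of the 10 members with 95% confidence intervals (edgeR), for Dox/IAA within each line (left) and for degron against parental cells with and without Dox/IAA (right). Within degron cells 9 members lie between -1.57 and -0.67 and TOP2B lies at 0.08, and TOP2B alone is at -0.60 between the untreated lines.

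In the absence of Dox/IAA, the lines differed in 1 member, TOP2B, while 15% of tested genes were called lower in degron cells. The log2 fold change of TOP2B was -0.60 (95% confidence interval -0.74 to -0.46, adjusted p = 3.07e-06, edgeR), which is 66.1% of the parental level. The other 9 members lay between -0.28 (SMC4) and 0.13 (NCAPH and TOP2A). TOP2B and SMC4 are the members on chromosome 3, and the 938 tested genes of this chromosome had a median log2 fold change of -0.27 between the untreated lines, against 0.00 over all tested genes. Within 10 Mb of SMC4, 72 other tested genes had a median of -0.27, and 35 of them lay below SMC4. Within 10 Mb of TOP2B, 63 other tested genes also had a median of -0.27, and 5 of them lay below TOP2B. The part of this regional difference in the values of SMC4 and TOP2B was not tested. Within degron cells, the medians of the same neighbours were -0.08 around SMC4 and -0.04 around TOP2B, and SMC4 was below all 72 of its neighbours.

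**Figure D3:**
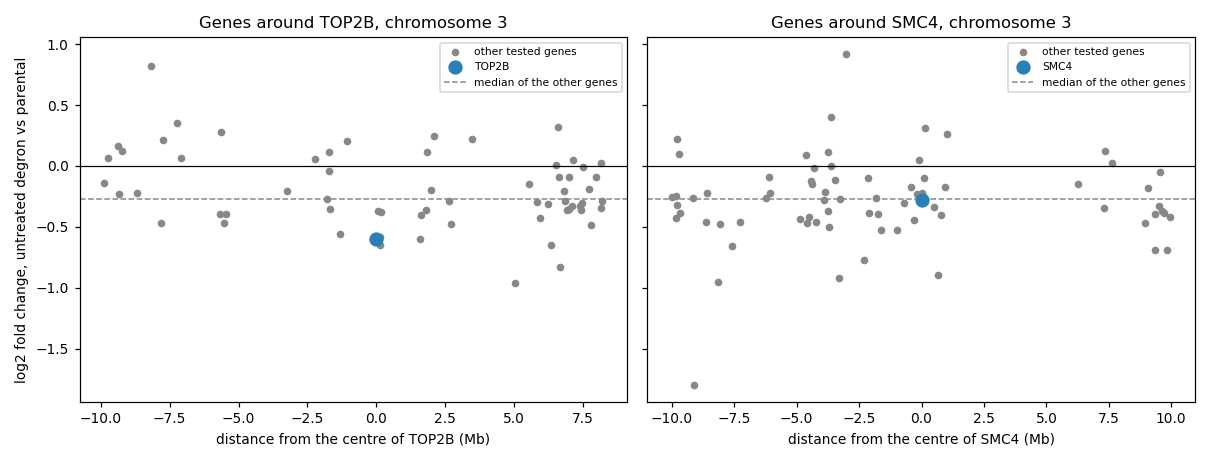
Log2 fold changes between untreated degron and untreated parental cells of tested genes within 10 Mb of TOP2B (left) and SMC4 (right), against the distance in Mb between gene centres, with the median of the other genes as a dashed line. SMC4 (-0.28) lies at the median of its neighbours (-0.27), and TOP2B (-0.60) lies below its own (-0.27).

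By level per kb, NCAPD2 was the highest and SMC2 the lowest member in every group. NCAPD2 had 63.6 ± 1.74 CPM per kb (SD, n = 3) in untreated parental cells and 28.8 ± 0.980 in treated degron cells. SMC2 had 9.53 ± 1.35 CPM per kb and 4.93 ± 0.164 in the same groups. TOP2A was second in the other 3 groups, with 43.5 ± 2.90 CPM per kb in untreated parental, 37.0 ± 5.33 in treated parental and 47.6 ± 3.06 in untreated degron cells, where it overlapped with no neighbour in the order. In both parental groups the libraries of TOP2A overlapped with those of NCAPG, the next in the order. In treated degron cells TOP2B (19.7 to 21.7 CPM per kb) and TOP2A (17.8 to 21.6) followed NCAPD2 and overlapped. From NCAPG, at 13.3 ± 1.41 CPM per kb, to NCAPG2, at 8.93 ± 0.752, each member of that group overlapped with the next. Among the 12425 protein-coding genes tested, TOP2A moved from percentile 93.8 in untreated to percentile 81.8 in treated degron cells, and NCAPG2 from percentile 81.2 to percentile 59.4.

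Over the 12 libraries, log2 CPM of the 9 members other than TOP2B correlated with each other at a Pearson's r between 0.889 and 0.993, and TOP2B correlated with them at between 0.308 and 0.638. The 12 points share 4 groups, so they are not independent. Of 9676 protein-coding genes with a mean of at least 10 CPM, those most like TOP2A were CCNB1 (r = 0.994), the cyclin of mitotic entry, its kinase CDK1 (r = 0.992) and DNAJC9 (r = 0.991), a histone chaperone. NCAPH was most like CDCA5 (r = 0.993), which encodes the cohesin protector sororin, CCNB1 (r = 0.993) and PTTG1 (r = 0.992), which encodes the separase inhibitor securin. NCAPH2 was most like MYBL2 (r = 0.991), a transcription factor of cell-cycle genes, the phosphatase CDC25A (r = 0.990) and thymidine kinase TK1 (r = 0.988). A high r does not mean a change of equal size. On the log2 scale within degron cells, MYBL2 was at -1.48, CDC25A at -1.35 and TK1 at -1.27, against -0.67 for NCAPH2. For NCAPH, at -1.38, the values were -1.33 for CDCA5, -1.70 for CCNB1 and -1.23 for PTTG1. SMC2 was most like SPDL1 (r = 0.992), which encodes the kinetochore protein spindly, the replication factor GINS4 (r = 0.987) and the helicase MCM8 (r = 0.987). TOP2B was most like the desmosomal cadherin DSC3 (r = 0.988), the phosphodiesterase PDE4B (r = 0.977) and the histidine methyltransferase METTL9 (r = 0.975), none of which is on chromosome 3. PDE4B had means of 248.7 CPM in untreated parental and 52.2 CPM in untreated degron cells.

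Genes of related lists were set beside the members, and the values below are log2 fold changes within degron cells unless stated. In that comparison 25.5% of all tested genes were called lower and 26.0% higher, and the lists' counts are to be read against these shares. Of 28 genes of G2 and mitosis, all 28 were called lower, with a median of -1.39. Examples were PLK1 (-1.52), the mitotic kinase, the checkpoint kinase BUB1B (-1.50) and the kinetochore protein CENPF (-1.53). Of 24 genes of the G1/S transition, all 24 were called lower, with a median of -1.17, among them MCM2 (-1.15), a subunit of the replicative helicase, the licensing factor CDT1 (-1.08) and the clamp loader subunit RFC4 (-1.47). In the interaction, 28 of 28 genes of G2 and mitosis (median -1.27) and 21 of 24 genes of G1/S (median -0.87) were called lower. Of all tested genes 8.35% were called lower in it, and the counts of the other lists are given below. Within parental cells, 4 of 28 genes of G2 and mitosis and 10 of 24 of G1/S were called lower, against 15.7% of all tested genes. Between the untreated lines, 1 of the 28 genes of G2 and mitosis was called lower and 7 higher in degron cells (median 0.10). Of the 24 genes of G1/S, 8 were called lower and 2 higher there (median -0.13). Of all 16657 tested genes, 2500 were called lower and 2198 higher in that comparison.

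Among 7 CDK inhibitors, 1 was called lower and 3 were called higher (25.5% and 26.0% of all tested genes), with a median of 0.15. CDKN1A, which encodes p21, was at 0.71 (adjusted p = 1.18e-06, edgeR) within degron cells, but also at 0.94 (adjusted p = 2.58e-07) between the untreated lines. CDKN2A was at -0.24 (adjusted p = 0.0281) and CDKN2C at -0.28 (adjusted p = 0.166) within degron cells. CDKN1C at 1.13 (adjusted p = 1.14e-06) and CDKN2B at 0.95 (adjusted p = 0.00326), named after their values were seen, were also called higher there. Within parental cells CDKN1C was at 0.78 (adjusted p = 3.23e-04, edgeR) and CDKN2B at -0.05. In the interaction, 1 of the 7 was called higher, CDKN1A (0.65), and none lower.

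Among 17 genes of cohesin, the ring complex that holds sister chromatids together, 11 were called lower and 4 higher, with a median of -0.42. The separase ESPL1 (-1.36), CDCA5 (-1.33) and the shugoshin SGO1 (-1.31), all of which act on cohesin in mitosis, were among those that fell. The ATPases SMC1A (-0.66, adjusted p = 3.24e-07) and SMC3 (-0.65, adjusted p = 2.46e-06), counterparts of SMC2 and SMC4 named after their values were seen, fell by less than SMC2 and SMC4 on this scale. That difference between genes was not tested. Of 8 tested genes of SMC5/6, the third complex of this family, 6 were called lower and 1 higher (median -0.36). Its ATPase SMC6 was at -0.59, the subunit NSMCE1 at -0.22 and the SUMO ligase NSMCE2 at -0.42. Within parental cells, 5 of these 8 genes were called lower (15.7% of all tested genes), with SMC6 at -0.21, NSMCE1 at -0.40 and NSMCE2 at -0.39. In the interaction, SMC6 was at -0.38 (adjusted p = 0.0129, edgeR), NSMCE1 at 0.18 (adjusted p = 0.334) and NSMCE2 at -0.03 (adjusted p = 0.924). There 8 of 17 genes of cohesin were called lower and 1 higher, and 3 of 8 of SMC5/6 were called lower (8.35% of all tested genes).

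Of 8 genes of other topoisomerases and their partners, 6 were called lower and none higher, with a median of -0.44. The lowest were the helicase BLM (-1.35) and RMI1 (-1.21), both of which work with topoisomerase III alpha, and RMI2 of the same complex was at -0.36 (adjusted p = 0.0375). Of these 8 genes, 3 were called lower within parental cells (15.7% of all tested genes) and 2 in the interaction (8.35%). Of 8 genes that repair topoisomerase II adducts, 3 were called lower and 2 higher (median -0.18), against 25.5% and 26.0% of all tested genes. RBBP8 was at -0.47, ZNF451 at 0.23 and NBN at -0.10 (adjusted p = 0.205). Within parental cells RBBP8 was at -0.41 (adjusted p = 1.07e-04, edgeR), and no gene of this list was called in the interaction. Of 14 genes that modify or recruit condensin or topoisomerase II, 10 were called lower and none higher (median -0.70). They included AURKB (-1.64), PLK1 and TOPBP1 (-0.91), and 4 of the 14 (AURKB, CCNB1, CDK1 and PLK1) are also in the list of G2 and mitosis. In the interaction, 9 of the 14 were called lower (8.35% of all tested genes).

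Between the treated lines, where 23.1% of all tested genes were called lower and 21.8% higher, the same lists had 28 of 28 genes of G2 and mitosis called lower (median -1.16), 24 of 24 of G1/S (-1.05), 13 of 17 of cohesin (-0.40), 6 of 8 of SMC5/6 (-0.44), 6 of 8 of the other topoisomerases (-0.35), 3 of 8 of adduct repair (-0.09) and 10 of 14 of the regulators (-0.74). Called higher were 2 genes of cohesin, 1 of SMC5/6, 1 of the other topoisomerases and 1 of adduct repair. No gene of G2 and mitosis, of G1/S or of the regulators was called higher. The CDK inhibitors had 2 lower and 2 higher (0.14), with CDKN1A at 1.59.

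Overlapping genes and pseudogenes could share reads with some members. SMC4 overlaps IFT80 and TRIM59, NCAPD2 overlaps MRPL51, NCAPG overlaps LCORL and NCAPD3 overlaps VPS26B, all on the opposite strand, and the kit was stranded but whether the counting used strand is not given in the sources used here. Within degron cells, IFT80 was at 0.13, TRIM59 at -0.60, MRPL51 at -0.50, LCORL at 0.10 and VPS26B at 0.11 on the log2 scale. The pseudogenes NCAPD2P1, NCAPGP1, NCAPGP2 and SMC4P1 had 3550, 1092, 535 and 6 counts over all libraries, and reads could not be reassigned between them and their parent genes. TOP2B overlaps uc_338, a non-coding RNA on the same strand with 11 counts over all libraries, by 181 bases.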

How the data were processed

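Libraries of poly-A selected RNA (stranded kit, single reads) were mapped and counted by the authors, who deposited raw counts per gene together with gene position, length and GC content in percent. The submitters' processing notes name cutadapt 1.15, Bowtie2 2.3.3.1, STAR 2.5.2b, SAMtools 1.5, featureCounts 1.5.3 and the build GRCh38, without their roles. The number of columns without a sample was 0, and replicates differed by more than counting noise (chi-square divided by its degrees of freedom, 2.06 to 9.02). Reads are not molecules, so depth bounds only counting error.

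Genes were filtered with filterByExpr (minimum count 10), normalized by TMM and fitted with edgeR 4.0.16 (R 4.3.3), with 1 mean for each of 4 groups, over 12 libraries. The common biological coefficient of variation was 7.48%. Benjamini-Hochberg adjustment ran over 16657 genes. Confidence intervals (95%) came from the F statistic. Levels per kb used the deposited length. On simulated counts (200 genes changed by 1.5 on the log2 scale, seed 1) 87% were called in the interaction, 94.5% within degron cells and 93.5% between the treated lines, each among 16441 genes. Same-numbered libraries deviated together within parental cells (correlations of deviations from 0.124 to 0.246) and between the treated lines (0.101 to 0.138). By the rule used (all such correlations above 0.1), the numbers paired the libraries there. The main fit held no term for these pairs, so its p-values are unpaired, and the replicate block was run as an alternative. The labels do not say what a number shares. For correlations, log2 CPM had a prior count of 2. The alternatives comprised DESeq2 1.42.0, the likelihood ratio test, library size only, upper quartile, no filter, a filter of 1 CPM, only the groups compared, the replicate block, each library left out and the cut-off the study names.

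Named were all members, the targeted gene, overlapping genes with at least 10 counts, the 3 genes of each list with the smallest p in the treated-line comparison and the 3 genes most like 1 member of each class (both topoisomerases). Further genes of the lists are marked where they were named after their values were seen. The members and lists were chosen with earlier results of these data known.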

Additional observations from a re-analysis of the deposited data

Results flagged for a closer look

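The effect of Dox/IAA differed between the lines for 9 members, by the interaction term of edgeR's quasi-likelihood F test (log2 fold change in degron cells minus that in parental cells). The values were -0.94 for SMC2, -1.10 for SMC4, -0.98 for NCAPD2, -1.39 for NCAPG, -1.21 for NCAPH, -0.88 for NCAPD3, -1.22 for NCAPG2, -0.61 for NCAPH2 and -1.04 for TOP2A. For each of these, the highest adjusted p over the alternatives was 0.00717 or lower.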

How the results depend on the processing

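Under the alternatives, all 190 values of the members in the interaction, all 140 within degron cells and all 140 between the treated lines kept their direction and their side of the threshold. By the cut-off on unadjusted p and log2 fold change, 5 members were lower in the interaction and 4 between the treated lines. Within parental cells, 0 members were lower with library size only, with upper quartile factors, with only the groups compared and by the cut-off, 2 without a filter, 2 with the replicate block, and from 0 to 4 when each library was left out. With upper quartile factors NCAPD2 had an adjusted p of 0.0670, and with only the groups compared 0.108. Between the untreated lines, 2 members were lower without a filter, 2 with the replicate block, 2 with only the groups compared, 0 by the cut-off, and from 1 to 2 when each library was left out. The member added to TOP2B was SMC4 (adjusted p = 0.0246 with the block, and 0.0453 without untreated parental library 3). There the numbers did not pair the samples by the rule used (correlations from 0.0584 to 0.118), although 6 of 6 libraries correlated best with their own number. Within degron cells these correlations ran from -0.0093 to 0.0953, and 3 of 6 libraries correlated best with their own number. The block changed no other call of a member.

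Signs turned only for values that did not pass the test, when a library was left out. Within parental cells, SMC2 ran from -0.21 to 0.028, SMC4 from -0.12 to 0.16 and NCAPG2 from -0.050 to 0.17, and between the untreated lines SMC2 ran from -0.018 to 0.21 and NCAPH2 from -0.090 to 0.026. The cause was not tested. With library size only, 0 of 40 group levels moved by more than their SD. With 3 libraries a group, the standard errors of the members within parental cells lay between 0.0654 and 0.117 on the log2 scale, which limits how small a difference could be seen.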
